A study of Mus musculus with 8 samples.

Results

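The genes described here are 44 that act in the G2 phase of the cell cycle and in mitosis, chosen by name from CDK1 and its cyclins, the mitotic kinases, the spindle checkpoint, the kinetochore, the spindle motors and the cytokinesis machinery. All 44 were found among the 11911 genes of the count table, and all 44 were tested. RNA was sequenced from 8 cultures of naïve splenic CD4+ T cells that had been treated for 36 hours with TGF-β and with antibodies to CD3, CD28, IL-4 and IFNγ, conditions that turn naïve cells into induced regulatory T cells (iTregs). There were 4 libraries of the genotype *Foxp3 YFP-Cre*, labelled WT, and 4 of the genotype *Tdrd3 fl/fl/Foxp3 YFP-Cre*, labelled KO, and both genotypes carry the Cre allele. The ages of the mice were not given in the sources used here. Cre is made from the *Foxp3* locus, so *Tdrd3*, which encodes a Tudor domain protein, is deleted only in cells that have switched on *Foxp3*, and no sorting of YFP+ cells is described. The cultures can therefore hold cells with an intact *Tdrd3* gene. In bulk libraries like these, fewer dividing cells and less of a transcript in each cell cannot be told apart.

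Entry into mitosis is driven by the kinase CDK1 bound to cyclin A or cyclin B, which CDC25 phosphatases switch on. Most genes of the group are transcribed in a wave in late S and G2 by the MuvB complex with B-MYB and FOXM1, which is why their summed RNA is widely used as a measure of how many cells in a population are cycling. Naïve T cells are quiescent and start to divide when anti-CD3 and anti-CD28 engage their receptors, so the group is a readout of that expansion in iTreg cultures.

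Gene by gene, the G2/M and mitosis genes differed little between the genotypes. In 32 of the 44 the difference was smaller than 1 SD between libraries of a genotype. *Cdc25b*, a phosphatase that activates CDK1, was the only one of the 44 that was lower in KO at an unadjusted p under 0.05, at 103 ± 8.03 against 89.6 ± 6.95 normalized CPM (counts scaled to the library total, mean ± SD, n = 4 libraries each). Of all tested genes 4.91% were lower at that threshold. None of the 44 was higher in edgeR, DESeq2 or limma voom, where 4.38% of tested genes were higher in edgeR. For 43 of the 44 genes, *Cdc25b* being the exception, the 95% interval of the difference lay within 1.2-fold in both directions, as for 59.1% of tested genes. The score of the group, the mean log2 CPM of its genes, was 0.021 lower in KO on the log2 scale, or −1.46%, with overlapping genotypes. Between libraries of a genotype the score had an SD of 0.0162, which is smaller than that difference. Of the 44 genes 70.5% had a log2 fold change below 0, where 49.4% of tested genes did.

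Library totals lay between 13258239 and 16001676 counts. The 8 T cell markers (*Lck*, *Cd4*, *Cd5*, *Cd28* and the CD3 chains) were all present, with 2080.4 to 2209.7 CPM in sum, while 6 of the 17 markers of other cell types were listed and summed to 8.42 to 25.3 CPM. *Tdrd3* itself was lower in KO on average, with 15.4 ± 3.95 CPM in WT and 12.1 ± 1.43 in KO (SD, n = 4), and an edgeR p of 0.037 before adjustment and 0.496 after it. Values of 18.8, 15.1 and 17.7 in WT replicates 1, 2 and 4 lay above all KO libraries (10.7 to 13.7), but the library labelled WT replicate 3, at 9.95, lay below them all. Totals per gene cannot show the floxed exons apart from the rest. *Foxp3*, which defines regulatory T cells, had a mean of 109.9 CPM in WT and 88.4 in KO. WT replicate 3 also held 11.3 CPM of *Cd8a*, a marker of CD8 T cells, against 0.436 to 1.37 in the other 7 libraries. KO replicates 1 and 4 had stood apart from the other libraries in an earlier clustering of all genes, so results that rest on them are also given without them. No pair of WT libraries was left out to match. The study's methods take replicates from independent mice but name 3 a group, where 4 libraries carry each label. The p-values set the difference between genotypes against the spread between these libraries. WT and KO are used here as the names of the labels.

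Promoters of this group share short sequence features that played no part in choosing it. The cell cycle genes homology region (CHR), to which MuvB binds, reads TTTGAA or TTCGAA, and CCAAT boxes, bound by the factor NF-Y, often lie nearby. Within 250 bases before and 50 after the start of the canonical GENCODE transcript, TTTGAA or TTCGAA was found on either strand in 26 of the 44 genes, or 59.1%, against 15.6% of 11316 tested genes with such a window. CCAAT was found in 28 genes, or 63.6%, against 40.2%, and at least 2 copies of it in 18, or 40.9%, against 14.9%. Both kinds of motif stood in the same window in 20 genes, or 45.5%, against 6.76% of tested genes. A string of the one kind can share at most 1 base with a string of the other. *Cdc25b*, *Foxm1*, *Aurka* and *Birc5* were among the genes with neither. The 200 bases before the start are given here for *Cdk1*, *Ccnb2* and *Top2a*, as promoters with both motifs, for *Racgap1*, whose genotypes did not overlap, and for *Cdc25b*. They run 5′ to 3′ on the gene's strand in GRCm39, at chr10:69188769-69188968 (minus) for *Cdk1*, chr9:70328875-70329074 (minus) for *Ccnb2*, chr11:98915042-98915241 (minus) for *Top2a*, chr15:99549538-99549737 (minus) for *Racgap1* and chr2:131028562-131028761 (plus) for *Cdc25b*. Capitals mark the CHR strings (TTTGAA or TTCGAA, with TTCAAA as a reverse complement) and the CCAAT boxes (ATTGG on the other strand).
Cdk1: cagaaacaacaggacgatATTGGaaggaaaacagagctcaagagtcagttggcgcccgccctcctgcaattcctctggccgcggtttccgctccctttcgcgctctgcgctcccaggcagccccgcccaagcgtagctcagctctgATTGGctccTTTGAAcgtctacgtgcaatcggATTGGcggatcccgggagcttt
Ccnb2: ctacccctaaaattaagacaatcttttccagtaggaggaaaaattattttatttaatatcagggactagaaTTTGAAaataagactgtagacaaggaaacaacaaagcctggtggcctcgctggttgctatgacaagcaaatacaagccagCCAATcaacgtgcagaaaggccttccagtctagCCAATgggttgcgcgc
Top2a: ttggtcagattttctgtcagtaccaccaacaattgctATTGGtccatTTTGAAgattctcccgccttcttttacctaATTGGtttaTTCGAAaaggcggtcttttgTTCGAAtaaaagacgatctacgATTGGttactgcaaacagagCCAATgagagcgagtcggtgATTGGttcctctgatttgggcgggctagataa
Racgap1: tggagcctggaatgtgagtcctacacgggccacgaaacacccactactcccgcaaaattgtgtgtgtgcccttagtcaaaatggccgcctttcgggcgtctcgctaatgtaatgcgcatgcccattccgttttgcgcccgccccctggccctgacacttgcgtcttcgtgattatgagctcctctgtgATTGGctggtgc
Cdc25b: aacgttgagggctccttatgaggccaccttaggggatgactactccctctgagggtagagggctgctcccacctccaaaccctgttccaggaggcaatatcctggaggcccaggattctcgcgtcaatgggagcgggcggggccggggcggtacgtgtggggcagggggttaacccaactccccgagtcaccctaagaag

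*Top2a* held 3 CHR strings and 5 CCAAT boxes in these bases, and *Cdk1* held TTTGAA 45 bases before the start between CCAAT boxes that begin 54 and 22 bases before it. The CHR string of *Racgap1* lies outside the stretch shown, 6 bases after the start. A match of letters is a description and no measured binding. The 26 genes with TTTGAA or TTCGAA had a median log2 fold change of −0.019 and the 18 without it −0.026.

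The genes were abundant and tightly measured. Their median mean level was 161 CPM against 37.5 CPM for all tested genes, only 12.3% of tested genes lay above that median, and the lowest count of any of the 44 in any library was 365. Together they took 0.94%, 0.9308%, 0.9335% and 0.9276% of the counts in WT replicates 1 to 4 and 0.8908%, 0.9356%, 0.9214% and 0.9148% in KO replicates 1 to 4. KO replicate 1 was the lowest, and KO replicate 2 lay above 3 of the 4 WT libraries. Between the highest and the lowest of the 8 libraries a gene of the group differed by 1.06-fold (*Tpx2*) to 1.36-fold (*Cdc25b*), with a median of 1.12-fold, and 12 genes ranged over less than 1.1-fold. Within a genotype, the median SD on the log2 scale was 0.0557, against 0.105 over all tested genes. Relative to counting error alone, the spread within genotypes had a median index of dispersion (variance over mean of the counts, where 1 is counting error only) of 3.01, beside 2.83 for all tested genes. At equal relative spread this index grows with the count, so it does not compare genes of unlike level. *Ect2*, which is needed for cytokinesis, had the lowest index at 0.666, and *Mki67*, which encodes the proliferation marker Ki-67, the highest at 38.2. As a share of the mean, the SD of *Mki67* was 3.03% in WT and 5.15% in KO, beside group medians of 3.68% and 3.35%.

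**Figure D1:**
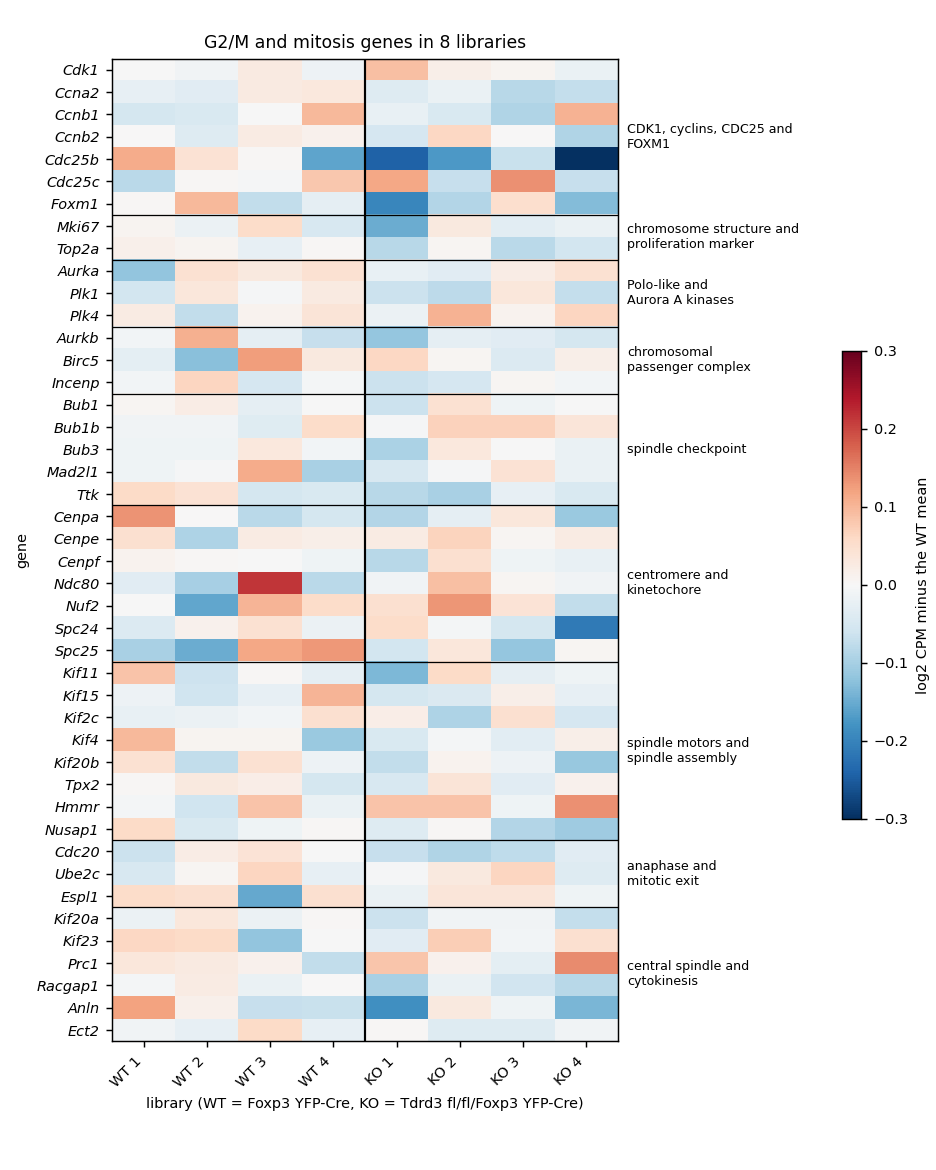
Heat map of the 44 G2/M and mitosis genes (rows, grouped by role) in the 4 WT and 4 KO libraries (columns), coloured by log2 CPM minus the mean of the WT libraries. The row of *Cdc25b* is blue in all 4 KO libraries and in WT replicate 4, while most other rows mix colours within both genotypes.

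Divided by the length of the canonical transcript, levels can be compared roughly between genes. *Top2a*, the topoisomerase that untangles sister chromatids, was the highest in WT with 219 ± 2.73 CPM per kilobase (SD, n = 4). *Ube2c*, the ubiquitin-conjugating enzyme of the anaphase-promoting complex (APC/C), followed with 197 ± 6.75 CPM per kilobase, and *Cenpa*, the centromeric histone H3 variant, and *Mki67* had 148 ± 9.93 and 148 ± 4.49, which do not differ beyond their spread. At the low end *Anln*, which encodes the contractile-ring protein anillin, had 9.59 ± 0.601 CPM per kilobase in WT, *Ttk*, the checkpoint kinase MPS1, 12.8 ± 0.518, and *Cdc25b* and *Cdc25c* 13.4 ± 1.04 and 13.5 ± 0.619. The counted span of *Cdc25b* (plus strand) stops at base 131040418 of chromosome 2, and the GENCODE gene runs on to 131044913. The length used for *Cdc25b* may include bases that were not counted, so its place at the low end is uncertain. *Cdk1* itself stood at 34.6 ± 0.455, below its partners *Ccna2* (121 ± 2.89), *Ccnb1* (78.5 ± 3.87) and *Ccnb2* (73.6 ± 1.44) on the same scale.

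Subunits of a single complex were not measured at equal levels. Of the chromosomal passenger complex, which corrects faulty attachments of chromosomes to the spindle, *Birc5* (survivin) had 129 ± 9.74 CPM per kilobase in WT, *Aurkb* (Aurora B) 86.8 ± 4.43 and *Incenp* 34.0 ± 1.17. Centralspindlin, the pair of proteins that bundles the central spindle, showed 78.4 ± 0.961 for *Racgap1* and 27.5 ± 1.56 for *Kif23* on that scale. The 4 subunits of the NDC80 complex, which ties kinetochores to microtubules, lay closer together, at 46.3 ± 1.21 for *Spc24*, 38.7 ± 3.84 for *Spc25*, 36.1 ± 3.81 for *Ndc80* and 28.2 ± 2.15 for *Nuf2*. *Spc25* and *Ndc80* did not differ beyond their spread. These levels rest on one transcript per gene, and use of other transcripts was not measured. The counted span of *Incenp* (minus strand) stops at base 9849660 of chromosome 19, and the GENCODE gene runs on to 9846569. Its length may include bases that were not counted, so its level may be understated.

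**Figure D2:**
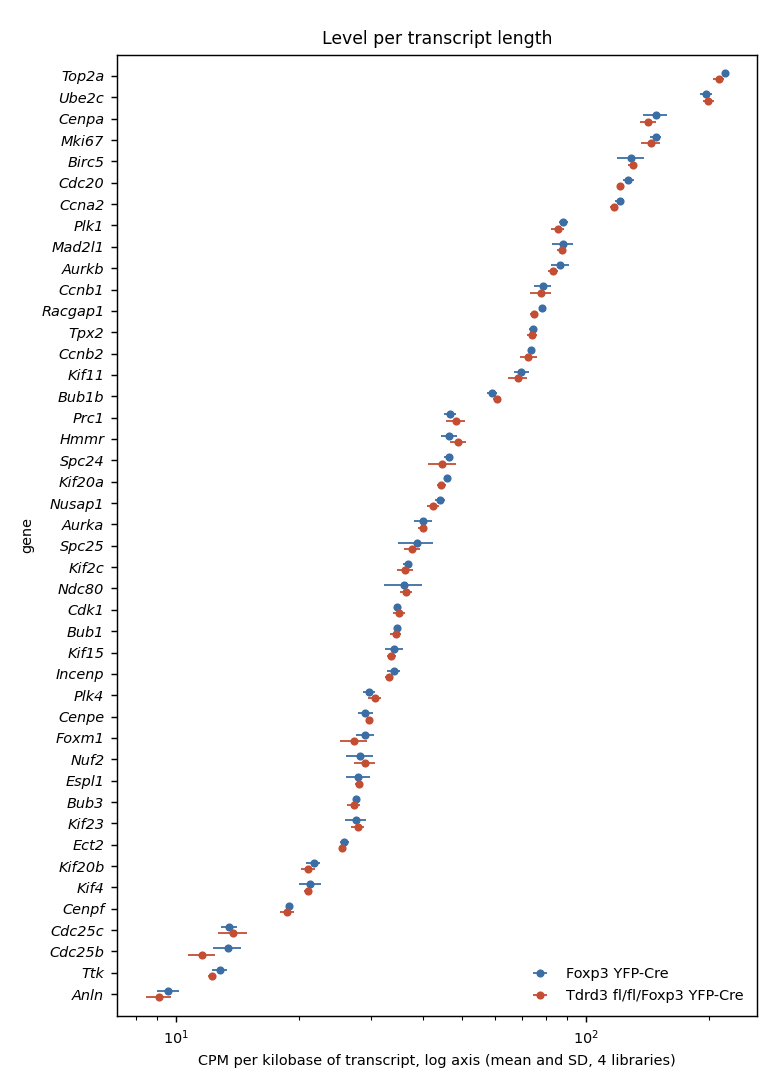
CPM per kilobase of canonical transcript (log axis) for each of the 44 genes, ordered by the WT level, with the mean and SD of 4 libraries for each genotype. The levels run from 9.59 (*Anln*) to 219 (*Top2a*) in WT, and the KO mean lies beside the WT mean for most genes. Where the counted span of a gene is shorter than the GENCODE gene, the level may be understated.

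The comparison of the genotypes asks whether the division programme of the cultures differs with *Tdrd3*. In edgeR's quasi-likelihood test, 1 of the 44 genes was lower in KO at an unadjusted p under 0.05, where 4.91% of all tested genes were lower, and 0 were higher, where 4.38% were higher; in either direction that is 1 gene against a background of 9.30%. After Benjamini-Hochberg adjustment over all 11317 tested genes, 0 of the 44 passed, against 0.265% of all tested genes, and DESeq2 and limma voom also gave 0. The genotypes did not overlap in 1 gene, *Racgap1*, which was lower in KO; the background is 4.89% in either direction, 2.63% lower and 2.25% higher. A log2 fold change below 0 was found in 31 of the 44 genes, or 70.5%, where 49.4% of all tested genes were below 0, and above 0 in 13. The median was −0.021, beside 0.0013 over all tested genes, and the range ran from −0.20 for *Cdc25b* to 0.075 for *Hmmr*. Without KO replicates 1 and 4 the median was −0.0049 and 25 genes were below 0.

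The intervals were narrow. In 43 genes the 95% interval lay within 1.2-fold both ways, where 59.1% of all tested genes had such an interval, and in 26 it lay within 1.1-fold, where 16.1% did. Intervals narrow with the level of a gene, and these genes are abundant. Over the group the median size of the difference was 2.25%, and in 32 genes the difference was smaller than 1 SD between libraries of a genotype. The lowest bound of any interval was −0.33 (*Cdc25b*) and the highest 0.19 (*Cdc25c*) on the log2 scale.

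**Figure D3:**
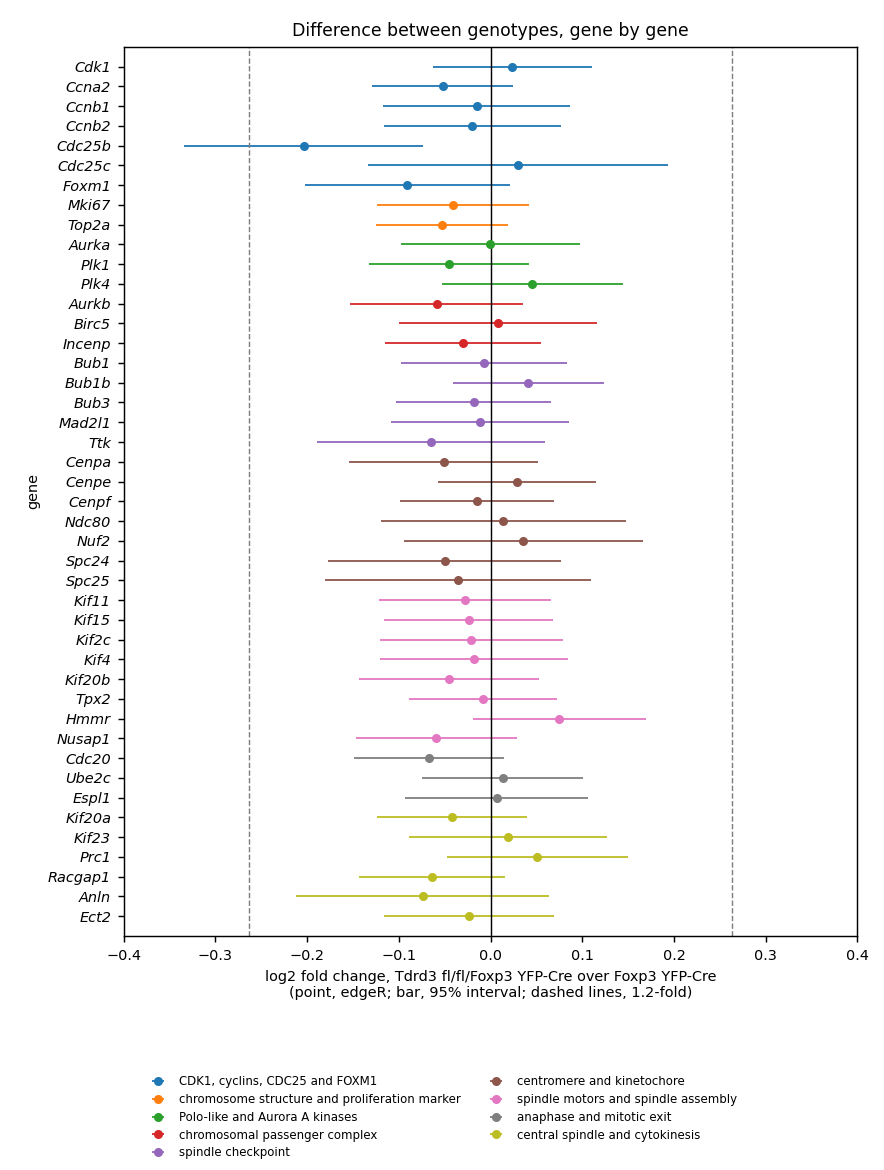
Log2 fold change (KO over WT) of each of the 44 genes from edgeR, with its 95% interval, coloured by role; dashed lines mark 1.2-fold. *Cdc25b* is the only gene whose interval does not cross 0 and the only one that passes a dashed line.

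Among the genes for entry into mitosis, *Cdc25b* (ENSMUSG00000027330, GRCm39 chr2:131028869-131040418, plus strand) had 111, 106, 103 and 92.2 CPM in WT replicates 1 to 4 and 86.9, 91.3, 98.2 and 81.8 in KO replicates 1 to 4. WT replicate 4 lay below KO replicate 3, so the genotypes overlapped. The log2 fold change was −0.20 with a standard error of 0.0625 and a 95% interval of −0.33 to −0.073, or −13.2%. In edgeR's quasi-likelihood test the unadjusted p was 0.00408 and the Benjamini-Hochberg adjusted p 0.208. The two-sided exact permutation test on log2(CPM + 0.5) gave p = 0.0571 (n = 4 per genotype; the smallest possible value is 0.0286). Across 16 other settings the adjusted p ran from 0.0499, without WT replicate 4, to 1, and the unadjusted p stayed under 0.05 in 15. Without KO replicates 1 and 4 the log2 fold change was −0.12, with an unadjusted p of 0.109. Its exons share 190 bases with those of *Spef1* on the opposite strand.

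*Cdc25c*, the related phosphatase, did not move with it: its level was 26.6 ± 1.22 CPM in WT and 27.2 ± 2.16 in KO (SD, n = 4). *Cdc25c* had a log2 fold change of 0.030 (95% interval −0.13 to 0.19), and 1907 bases of its exons overlap other genes. The difference between the 2 phosphatases was not tested. *Cdk1*, the kinase that both act on, had 151, 150.0, 154 and 149.6 CPM in WT replicates 1 to 4 and 161, 153, 152 and 149 in KO replicates 1 to 4. KO replicate 1 held the most *Cdk1* RNA and KO replicate 4 the least, and the log2 fold change was 0.024 (95% interval −0.063 to 0.11).

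*Ccnb1*, which encodes cyclin B1, had 191, 192, 198 and 212 CPM in WT and 195, 192, 186 and 213 in KO replicates 1 to 4. Replicate 4 was the highest of each genotype, and the log2 fold change of *Ccnb1* was −0.015 (−0.12 to 0.087). The other mitotic cyclins had log2 fold changes of −0.052 (*Ccna2*) and −0.020 (*Ccnb2*). *Foxm1*, the transcription factor for many genes of the group, had 148, 158, 140.2 and 145 CPM in WT and 129, 139, 153 and 135 in KO replicates 1 to 4. KO replicate 3 lay above 3 of the 4 WT libraries, and the other 3 KO libraries lay below all of WT. Its log2 fold change, the second lowest of the 44, was −0.091 (−0.20 to 0.021), with an adjusted p of 0.673 in the edgeR test.

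*Mki67* and *Top2a* were by far the most abundant of the group before scaling for length. *Mki67* had 1532, 1504, 1583 and 1474 CPM in WT and 1374, 1554, 1489.9 and 1503 in KO replicates 1 to 4. Only KO replicate 1 lay below all WT libraries, and the log2 fold change was −0.041 (−0.12 to 0.042). *Top2a* had 1161, 1154, 1128 and 1150.1 CPM in WT and 1084, 1153, 1086 and 1106 in KO replicates 1 to 4. KO replicates 1, 3 and 4 lay below all WT libraries and KO replicate 2 lay among them, for a log2 fold change of −0.053 (−0.12 to 0.019) and an edgeR adjusted p of 0.718.

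Of the kinases that build the centrosomes and spindle poles, *Plk1*, Polo-like kinase 1, had 189, 201, 196 and 200.1 CPM in WT and 188, 186, 201 and 187 in KO replicates 1 to 4. KO replicate 3 was the highest library, and the other 3 KO libraries were below all of WT (log2 fold change −0.045, −0.13 to 0.042). *Aurka*, Aurora A, had 117, 131, 129.6 and 131 CPM in WT and 125, 124, 129 and 131 in KO replicates 1 to 4. The means were equal to 3 digits, at 127 CPM, and WT replicate 1 was the lowest library. *Plk4*, which starts centriole duplication, had a log2 fold change of 0.046 (−0.053 to 0.14).

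Genes of the chromosomal passenger complex lay close to 0 as well. *Aurkb* had 169, 183, 167 and 162 CPM in WT and 157, 167, 166 and 164 in KO replicates 1 to 4, and *Birc5* had 124, 116, 138 and 129 in WT and 132, 127, 123 and 128 in KO. The log2 fold change was −0.059 for *Aurkb* (−0.15 to 0.035) and 0.0080 for *Birc5* (−0.10 to 0.12), and the genotypes overlapped in both. *Incenp*, the scaffold of the complex, was at −0.030.

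In the spindle checkpoint, which holds back anaphase until chromosomes are attached, *Bub1* had 119.6, 121, 117 and 119 CPM in WT and 114, 123, 118 and 119 in KO replicates 1 to 4. *Bub1b*, which encodes the checkpoint protein BUBR1, had 216, 216, 212 and 226 CPM in WT and 217, 228, 228 and 223 in KO. For *Bub1b* 3 WT libraries lay below all KO libraries and WT replicate 4 lay among them, with a log2 fold change of 0.041 (−0.042 to 0.12). *Bub1* was at −0.0070 (−0.098 to 0.083). The remaining genes of the checkpoint, *Bub3*, *Mad2l1* and *Ttk*, had log2 fold changes of −0.018, −0.011 and −0.065.

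At the centromere and kinetochore, *Cenpa* had 237, 216, 204 and 208 CPM in WT and 203, 212, 221 and 199.7 in KO replicates 1 to 4. WT replicate 1 was high among the WT libraries, and the log2 fold change of *Cenpa* was −0.051 (−0.15 to 0.052). *Ndc80* had 77.6, 74.1, 92.2 and 75.1 CPM in WT and 78.9, 84.6, 79.7 and 78.8 in KO. WT replicate 3 had the most *Ndc80* and the other 3 WT libraries lay below all of KO, and the log2 fold change was 0.014 (−0.12 to 0.15). Its partners in the complex were at 0.036 (*Nuf2*), −0.050 (*Spc24*) and −0.035 (*Spc25*), and 3693 bases of the *Spc25* exons overlap *Nostrin* on the opposite strand. *Cenpe*, a kinetochore motor, and *Cenpf* were at 0.029 and −0.015.

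Among the spindle motors, *Kif11*, the plus-end motor that pushes spindle poles apart, had 359.6, 325, 339.7 and 333 CPM in WT and 309, 353, 333 and 336 in KO replicates 1 to 4. *Tpx2*, which activates Aurora A and nucleates microtubules, had 313, 319, 317 and 301 CPM in WT and 302, 321, 305 and 315 in KO. Both genes had overlapping genotypes, with log2 fold changes of −0.028 (−0.12 to 0.066) for *Kif11* and −0.0083 (−0.089 to 0.072) for *Tpx2*. *Hmmr*, which encodes a spindle protein that binds hyaluronan and microtubules, had the highest log2 fold change of the 44. It had 184, 177, 196 and 182 CPM in WT and 196, 196, 183 and 203 in KO replicates 1 to 4. WT replicate 3 was as high as KO replicates 1 and 2, KO replicate 3 lay with the other WT libraries, and the log2 fold change was 0.075 (−0.019 to 0.17), with an edgeR adjusted p of 0.687. *Kif15*, *Kif2c*, *Kif4*, *Kif20b* and *Nusap1* were between −0.059 (*Nusap1*) and −0.018 (*Kif4*).

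For the exit from mitosis, *Cdc20*, the activator of the APC/C, had 225, 239, 242 and 235 CPM in WT and 224, 221, 223 and 229.6 in KO replicates 1 to 4. Only KO replicate 4 reached into the range of WT, where replicate 1 was low, and the log2 fold change was −0.067 (−0.15 to 0.015), with an edgeR adjusted p of 0.664 and a two-sided exact permutation p of 0.0571. *Ube2c*, which works with the same complex, had 184, 191, 199 and 187 CPM in WT and 189.7, 194, 199 and 185 in KO. It overlapped throughout, with a log2 fold change of 0.013 (−0.074 to 0.10). *Espl1*, the separase that cleaves cohesin, was at 0.0068.

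At the central spindle, *Racgap1* (ENSMUSG00000023015, GRCm39 chr15:99518377-99549538, minus strand), a subunit of centralspindlin, had 229, 234, 227 and 230.1 CPM in WT replicates 1 to 4 and 215, 227, 221 and 217 in KO replicates 1 to 4. To the nearest whole number WT replicate 3 and KO replicate 2 were equal, and before rounding each KO library was below each WT library. *Racgap1* was followed by library because of this absence of overlap. The log2 fold change was −0.064 (−0.14 to 0.016), or −4.31%, with an adjusted p of 0.684 in the edgeR test. When counts were scaled by library size only, the genotypes of no gene of the group were without overlap.

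*Kif20a*, a kinesin of the central spindle, had 192, 199, 192 and 195 CPM in WT and 186, 193, 193 and 185 in KO replicates 1 to 4, and 3086 bases of its exons overlap *Brd8* and *Cdc23* on the opposite strand. *Ect2* had 103, 102, 108 and 102 CPM in WT and 104, 101, 101 and 103 in KO. The genotypes overlapped in both, with log2 fold changes of −0.042 (−0.12 to 0.040) for *Kif20a* and −0.024 (−0.12 to 0.069) for *Ect2*. *Prc1*, the microtubule bundler of the midzone, had the second highest log2 fold change of the group. It had 141, 140.4, 139 and 131 CPM in WT and 146, 139, 135 and 152 in KO, where replicates 1 and 4 were the 2 highest of all libraries. The log2 fold change of *Prc1* was 0.051 (−0.048 to 0.15). *Kif23* and *Anln* were at 0.019 and −0.074.

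As a score, the mean log2 CPM over the 44 genes was 7.273, 7.257, 7.279 and 7.263 in WT replicates 1 to 4 and 7.225, 7.27, 7.258 and 7.234 in KO replicates 1 to 4. KO replicates 1 and 4 lay below all WT libraries and KO replicates 2 and 3 lay among them. The means were 7.268 ± 0.00969 and 7.247 ± 0.0208 (SD, n = 4), a difference of −0.021, and without KO replicates 1 and 4 the difference was −0.0046. These libraries had the lowest scores, so leaving them out could only shrink the difference. KO replicate 1 was the lowest of the 8 libraries in 11 of the 44 genes and above a gene's mean in 10, and WT replicate 3 was above it in 31. *Foxp3* was also lowest in KO replicate 1, with 77.2 CPM, and stood at 78.1 in KO replicate 4, against 105 and 93.2 in KO replicates 2 and 3. Its part in the score was not tested.

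Split by role, the score of CDK1, the cyclins, the CDC25 phosphatases and *Foxm1* was the one of 9 whose genotypes did not overlap, at 6.973 to 6.984 in WT and 6.893 to 6.972 in KO, a difference of −0.047. Without *Cdc25b* that score overlapped, at 7.002 to 7.059 in WT and 6.983 to 7.031 in KO, with a difference of −0.022. *Mki67* and *Top2a* gave −0.048, where KO replicate 1 was the lowest library and KO replicate 2 the highest. The remaining 7 role scores differed by −0.026 (chromosomal passenger complex) to 0.0002 (Polo-like and Aurora A kinases). No test was made of a score.

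**Figure D4:**
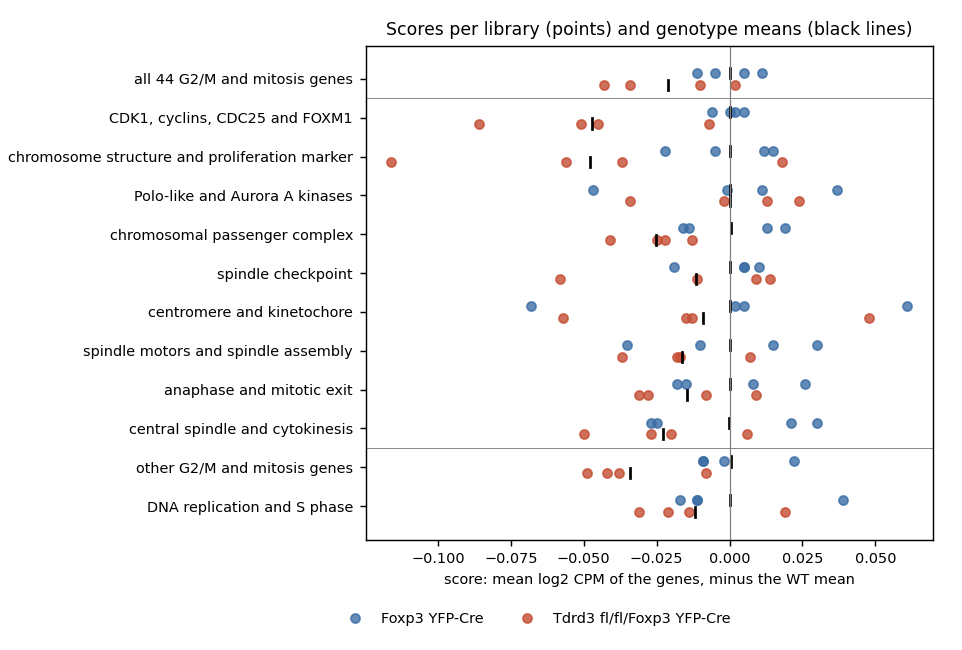
Scores (mean log2 CPM of the genes of a group, minus the WT mean) in each library, for the 44 genes together, for their 9 roles and for further lists of cell cycle genes; points are libraries and black lines the mean of 4. The genotypes overlap in each row shown except that of CDK1, cyclins, CDC25 and FOXM1, which holds *Cdc25b*.

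Beyond the 44, 116 further genes of G2 and mitosis were tested (mitotic entry, cohesion and condensation, kinetochore, spindle, APC/C and cytokinesis). Of these, 6 were lower in KO at an unadjusted edgeR p under 0.05, a share near the 4.91% of all tested genes, with 4 lower in DESeq2 and 7 in limma voom. None was higher in any of these tools, and none passed adjustment in edgeR. Their median log2 fold change was −0.028, and 85 of the 116, or 73.3%, were below 0. The 3 with the smallest p were *Cenpu*, *Kif18b* and *Tacc3*. *Cenpu*, which encodes an inner kinetochore protein, had 14.9, 14.2, 17.2 and 14.9 CPM in WT and 13.1, 12, 9.92 and 13.8 in KO replicates 1 to 4, without overlap (2.63% of tested genes were lower without overlap), at a log2 fold change of −0.33 and an edgeR adjusted p of 0.324. *Tacc3*, a stabiliser of spindle microtubules, had 164, 172, 174 and 170.1 CPM in WT and 153, 160.3, 163 and 158 in KO. It too was without overlap, at −0.10 with an edgeR adjusted p of 0.446. *Kif18b*, a kinesin that shortens astral microtubules, was at −0.13 (edgeR adjusted p = 0.396). Without KO replicate 1 the 6 lower genes became 2, and without KO replicates 1 and 4 there was 1. Over all tested genes, those past an unadjusted edgeR p under 0.05 in either direction also fell, from 1052 to 697 and to 450.

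DNA replication and S phase genes, 57 in number, had a median log2 fold change of −0.015, with 32 below 0. *Rpa2*, a subunit of the single-stranded DNA binding protein RPA, and *Slbp*, which binds histone mRNA, were lower at an unadjusted edgeR p under 0.05, at −0.11 and −0.089, with adjusted p-values of 0.516 and 0.537, and these 2 of 57 are a smaller share than the 4.91% of all tested genes. With limma voom neither was, and 1 other gene of the list was higher. Of the 20 factors of the MuvB, DREAM and E2F families that control cell cycle transcription, *E2f2* and *Tfdp2* were lower, with edgeR log2 fold changes of −0.17 and −0.16 (adjusted p = 0.300 and 0.343; 2 of 20 genes beside that same 4.91%), and 0 were higher in edgeR, DESeq2 or limma voom. *E2f2* had 137, 139.9, 119 and 116 CPM in WT and 113, 118, 115 and 109 in KO replicates 1 to 4. WT replicates 3 and 4 lay close to the KO libraries and replicate 4 among them. Without KO replicates 1 and 4 the log2 fold changes were −0.137 (*E2f2*) and −0.136 (*Tfdp2*), with unadjusted edgeR p-values of 0.0872 and 0.0925.

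Among cyclin-dependent kinase inhibitors and the cyclins and kinases of G1, 13 of the 16 listed genes were tested. *Ccnd2*, encoding cyclin D2, which links receptor signals to cell cycle entry, had 927, 917, 935 and 967 CPM in WT and 866, 878, 859.5 and 885 in KO replicates 1 to 4. The genotypes did not overlap, and *Ccnd2* was lower, with a difference of −6.92% and a log2 fold change of −0.10 (−0.17 to −0.032). Its edgeR p was 0.00662 before adjustment and 0.267 after it. Of the 13 genes 1 was lower and 1 higher at an unadjusted edgeR p under 0.05. Among all tested genes 4.91% were lower and 4.38% higher at that threshold, and 2.63% were lower without overlap. *Cdk6*, the G1 kinase that D cyclins activate, was higher, with 168, 172, 168 and 172 CPM in WT and 183, 167, 184 and 204 in KO. KO replicate 2 lay below all of WT, so the genotypes overlapped, at a log2 fold change of 0.12 (edgeR adjusted p = 0.471), and without KO replicate 4 it was 0.067 and no longer passed. *Cd247* and *Cd28* of the T cell markers were also lower at an unadjusted edgeR p under 0.05, at −0.12 and −0.10, and *Cd8a* and *Cd8b1* at −2.15 and −0.36. They were 2 of the 8 T cell markers and 2 of the 3 tested markers of other cell types, beside that same 4.91%. Without WT replicate 3 these 4 genes did not pass. Whether the makeup of the cultures bears on the cell cycle genes was not tested.

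**Figure D5:**
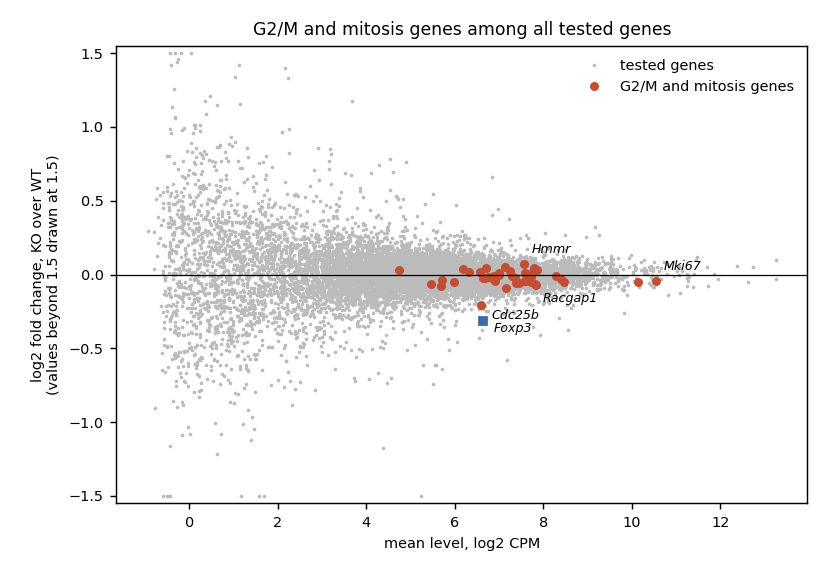
Log2 fold change (KO over WT) against mean level (log2 CPM) for the 11317 tested genes (grey), with the 44 G2/M and mitosis genes in red and *Foxp3* as a blue square. The 44 lie close to 0 among abundant genes, from −0.20 (*Cdc25b*) to 0.075 (*Hmmr*).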

How the data were processed

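Total RNA depleted of ribosomal RNA was sequenced from 4 WT and 4 KO iTreg cultures. The authors aligned reads to GRCm39 (mm39) with STAR 2.7.8a and estimated counts per gene in Partek Flow by its E/M method, in which a read matching more than 1 gene is shared among them; the submitters' notes also name DESeq2. The deposited values are these estimated counts after a filter, not normalized, and 33.2% were not whole within 0.005; such splitting makes genes with near copies or overlapping neighbours uncertain. All 8 values were whole in 6 of the 44 genes and none in 12. The exons of 24 overlap another gene in GENCODE release 39, and the strandedness and annotation of the counting are not given in the sources used here. All 8 labelled libraries were used, although the study's methods name 3 replicates a group.

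Estimated counts were rounded, filtered with filterByExpr (minimum count 10; 11317 of 11911 genes kept), normalized by TMM (factors 0.993 to 1) and tested with edgeR 4.0.16 (quasi-likelihood F-test, genotype only, two-sided, Benjamini-Hochberg over all tested genes) in R 4.3.3. Standard errors and 95% intervals are those implied by the F statistic. Exact permutation tests used 70 arrangements. CPM are normalized values, except the summed markers, which use library totals, and scores used a prior count of 2. The totals cover listed genes only; a floor of 3 counts was 0.187 to 0.226 CPM, for counting error only. No pair of libraries of a genotype was a duplicate (chi-square per degree of freedom 2.59 to 6.31). The pipeline was tested on simulated data.

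The genes and lists were chosen with earlier results of these data known. Values per library are given for genes with an unadjusted p under 0.05, for fixed representatives of each role and for the 2 largest fold changes in each direction; from other lists, genes with an unadjusted p under 0.05 are named, at most 3 in each direction. *Racgap1* was added after its values were seen. Same-numbered libraries deviated with correlations of −0.0458 to 0.0691 and none correlated best with its own number. No pairing by number was thus seen, though such correlations cannot exclude one, and the main test used none. Alternatives were DESeq2 size factors, library size only, no filter, at least 10 counts in every library, DESeq2 1.42.0, voom with quality weights (limma 3.58.1), a replicate block, each library left out, and KO replicates 1 and 4 left out together. Promoter windows and transcript lengths came from GENCODE release 39 on GRCm39, which held 11910 of the 11911 gene identifiers.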

Additional observations from a re-analysis of the deposited data

Results flagged for a closer look

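Among 148 groups of 4 libraries examined, 7 held a library whose gap to the next was a larger share of the group's range than Dixon's 95% critical value, and chance flags about 1 in 20 groups. Of the G2/M and mitosis genes, *Aurka* was low in WT replicate 1 (117 CPM, the other WT libraries 129.6 to 131) and *Espl1* was low in WT replicate 3 (185 CPM, the others 213 to 214). *Plk1* was high in KO replicate 3 (201 CPM, the others 186 to 188), *Ndc80* was high in KO replicate 2 (84.6 CPM, the others 78.8 to 79.7), and *Bub3* was high in WT replicate 3 (205 CPM, the others 199 to 199.6).

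Outside the group, *Cd8a* was high in WT replicate 3 (11.3 CPM, the other WT libraries 0.873 to 1.37). The score of the DNA replication and S phase genes was also high there (6.98 mean log2 CPM, the others 6.92 to 6.93). WT replicate 3 is thus the library in 4 of the 7 cases.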

How the results depend on the processing

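The median and the score of the 44 genes stayed below 0 under the 16 alternatives. Leaving out KO replicates 1 and 4 together moved most values: the score difference to −0.00462, the genes lower at an unadjusted p under 0.05 to 0, those without overlap to 4, the lower and higher genes of the other cell cycle lists to 3 and 0 (11 and 1 with all libraries), and *Cdc25b* to −0.124, with an edgeR adjusted p of 1. Over all tested genes, those past an unadjusted edgeR p under 0.05 in either direction fell from 1052 to 450. Fewer libraries separate more easily without overlap, and the share of all tested genes without overlap was not computed for the alternatives. The libraries left out had the lowest scores of the group. With limma voom 2 of the 44 were lower, the second being *Foxm1* (unadjusted p = 0.0459), and 2 genes of the other lists were higher. Over all tested genes 1341 passed an unadjusted p under 0.05 with limma voom. With library size only, 0 of the 44 were without overlap and 2 genes of the other lists were higher; with at least 10 counts in every library 2 were higher. The cause of these moves was not tested.

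Leaving out 1 library at a time gave 1 to 2 of the 44 lower, 0 to 1 higher (*Hmmr*, without WT replicate 3 or KO replicate 3), 0 to 1 with an adjusted p under 0.05 (*Cdc25b*, without WT replicate 4), 1 to 4 without overlap, a median of −0.0291 to −0.00887, a score difference of −0.0302 to −0.0146 and *Cdc25b* at −0.255 to −0.163. The other lists had 5 to 14 lower genes, fewest without KO replicate 1, and 1 to 2 higher. Over all tested genes 697 (without KO replicate 1) to 1230 passed an unadjusted edgeR p under 0.05 in either direction. Over all alternatives 23 of the 44 genes changed sign at least once, none of them while past the test in both, and 3 passed an unadjusted p under 0.05 at least once.

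The replicate numbers name the libraries, and the labels state no pairing by number. With a replicate block 1 of the 44 was lower and 0 had an adjusted p under 0.05, as without it, and *Cdc25b* was at −0.203, while over all tested genes 87 had an adjusted p under 0.05, against 30 without the block. Among all tested genes that count was 81 with DESeq2, 95 with limma voom and 6 to 162 with 1 library left out.

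The table holds estimated counts of listed genes only, so full sequencing depth is unknown here. The 95% intervals lay within 1.1-fold in 26 of the 44 genes and within 1.2-fold in 43.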

Other observations

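Within the 116 further genes of G2 and mitosis, the genes of chromosome cohesion and condensation (cohesin and condensin subunits and their regulators) had log2 fold changes below 0 in 18 of 21, with a median of −0.026 and 0 past an unadjusted edgeR p under 0.05. Subunits and activators of the APC/C, the ubiquitin ligase that ends mitosis, were below 0 in 12 of 15, with a median of −0.038 and again 0 past that threshold. For mitotic entry the count was 12 of 17 (median −0.039), for the centromere and kinetochore 25 of 35 (−0.027), for the spindle and centrosome 13 of 20 (−0.021) and for cytokinesis 5 of 8 (−0.0082). Over all tested genes 49.4% were below 0. In these libraries the genes share depth and scaling, so such shares are descriptions only.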
